A study of Danio rerio with 16 samples.

Results

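The control group of this RNA-seq experiment on cultured ovary of wild-type adult zebrafish consisted of 4 libraries, controls 1 to 4, of 16 libraries in the series, and these 4 were chosen by their treatment label alone. In the control, sections of ovary were kept in culture medium with the solvent DMSO and no test compound at 28 °C for 6 hours. The ovaries of a fish were cut into 5 sections, of which 4 were cultured, each with 1 of the treatments, and early-stage ovaries were preferred, so that most follicles were in primary or early secondary growth. Zebrafish ovaries also held minor populations of vitellogenic (yolk-storing) oocytes, as the study states. Polyadenylated RNA was sequenced as paired 150-base reads. The study states 4 samples per treatment, and the labels do not say which control library came from which fish. The spread given here is that between these 4 libraries. The other 12 libraries were not used, and no treatment was compared.

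A zebrafish ovarian follicle is an oocyte surrounded by an egg coat, a layer of granulosa cells, and an outer theca layer with steroid-producing cells, and the follicles lie in a stroma of connective tissue, vessels, muscle cells and leukocytes. A growing oocyte makes and stores most of the RNA and protein that the egg will need, since its genome falls silent before ovulation. The egg coat consists of zona pellucida (ZP) proteins, which fish make either in the oocyte or in the liver and which in zebrafish come from the ovary.

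Reads assigned to genes numbered 11750709, 12371260, 11576412 and 10915669 in controls 1 to 4. Levels below are FPKM, the reads of a gene per kilobase of its length and scaled to the depth of the library, as deposited by the authors, with the mean ± SD over n = 4, and 4 values in a row are those of controls 1 to 4 in that order. Protein-coding genes took 98.9% to 99.5% of the reads and genes of ribosomal RNA 0.0275% to 0.199%. A bulk library cannot tell fewer cells of a type apart from less RNA per cell.

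The 7 marker genes of the oocyte, the follicle layers and the stroma were all detected, and the oocyte and egg coat markers were far above those of the follicle cells and the muscle. The egg coat gene zp3a.1 (chromosome 20, 33991800 to 33993770 in GRCz11) was at 1677, 1767, 2044 and 2202 FPKM (1922 ± 243). Its neighbour zp3a.2 (chromosome 20, 33987465 to 33989427) was at 1578, 1366, 2019 and 1982 FPKM (1736 ± 317). The oocyte linker histone gene h1m (chromosome 5, 68327148 to 68332660), whose product packs chromatin before the somatic linker histones take over in the embryo, was at 1319, 1686, 1331 and 2178 FPKM. The values of these 3 genes overlapped, and each stood among the 20 most abundant genes of the tissue.

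Marker genes of the steroid-producing cells came next. The gene cyp11a1, which encodes the enzyme that cuts the side chain of cholesterol in the first step of steroid synthesis, is placed by GRCz11 both on chromosome 25 (22319942 to 22335283) and on an alternate scaffold, and summed over both copies it was at 115, 136, 100 and 188 FPKM (135 ± 38.4). The gene cyp17a1 (chromosome 13, 28601137 to 28611272), whose enzyme leads to androgens, was at 67.4, 68.7, 27.2 and 50.4 FPKM (53.4 ± 19.4). The values of cyp17a1 lay below those of cyp11a1 in every library and above those of the remaining markers, with no overlap in either direction.

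The smooth muscle actin gene acta2 (chromosome 12, 17100473 to 17115730) was at 10.3, 14.2, 3.46 and 11.3 FPKM (9.79 ± 4.53). The granulosa gene gsdf (chromosome 21, 196490 to 205221), a member of the TGF-beta family of the gonad, was at 4.57, 14.5, 1.35 and 5.27 FPKM (6.43 ± 5.65). These 2 genes overlapped, and both were lowest in control 3 and highest in control 2.

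Transcripts were spread over many genes. A mean of 1 FPKM or more was found for 14336 of the 29629 gene entries (13167 gene symbols), and 11374 entries reached 1 FPKM in every library. A mean of 10 FPKM was reached by 7243 entries, 100 FPKM by 912, and 1000 FPKM by 65. The 10 genes with the most reads in a library took 3.86%, 4.17%, 5.32% and 3.58% of its reads, the first 100 took 19.1%, 19.6%, 22.1% and 18.9%, and the first 1000 took 49.2%, 50.7%, 51.3% and 50.2%. Control 3 had the highest share at each of these depths.

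The most abundant transcripts came from genes of the egg coat, lectins, histones, cell junctions and protein synthesis, and many had no standard name. A provisional clone-based or locus name was held by 13 of the 30 most abundant genes, 38 of the first 100 and 192 of the first 1000. The 30 most abundant genes had means of 1262 FPKM or more. They held 6 genes with a ZP domain and 6 with a galactose-binding lectin domain, 2 genes of the cytosolic ribosome and 1 mitochondrially encoded gene.

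The gene at the top of the order, LOC100332229, is annotated as a histone H2A like that of sperm and lies on an alternate scaffold. It was at 1973, 7524, 1849 and 4932 FPKM (4070 ± 2708). The claudin gene cldnd, of a family of tight junction proteins, was at 2260, 5261, 1775 and 3489 FPKM (3196 ± 1554), and its relative cldng at 1697, 2054, 1561 and 2418 FPKM (1932 ± 385). The gene siva1, whose human counterpart promotes cell death, was at 1349, 5439, 906 and 3406 FPKM (2775 ± 2084). The histone gene, cldnd and siva1 had the same order of libraries, with control 2 at the top and controls 1 and 3 at the bottom, and the histone gene was above siva1 in every library, whereas cldnd was above or below either of them depending on the library. All 3 genes are short (684, 755 and 826 bases), and the shift of short genes between libraries is given below.

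Common housekeeping genes were also among the first 30. The glycolytic enzyme gene gapdh was at 1543, 2351, 1741 and 1980 FPKM (1904 ± 348), and the elongation factor gene eef1a1l1, which brings tRNA to the ribosome, at 1527, 2803, 1515 and 1726 FPKM (1893 ± 615). The tubulin gene tubb4b was at 1273, 2430, 1265 and 1332 FPKM (1575 ± 571), and the cytoplasmic actin gene actb2 at 1491, 2018, 1712 and 1067 FPKM (1572 ± 400). In eef1a1l1 and tubb4b control 2 stood apart above the other libraries, while in actb2 control 4 was the lowest. The gene retsatl, a relative of the retinol saturase that acts on vitamin A, was at 1629, 966, 1855 and 1473 FPKM (1481 ± 378), and in it control 2 was the lowest.

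Egg coat genes took more reads than the other families counted among the 100 most abundant genes. In that range 12 ZP-domain genes took 2.68% ± 0.296 of the reads, 11 galactose-binding lectins 1.34% ± 0.446 and 14 cytosolic ribosomal protein genes 1.05% ± 0.462 (SD, n = 4). The genome annotation gives a ZP domain to 69 entries (63 symbols), of which 25 symbols had a mean of 100 FPKM or more and 11 of 1000 or more, while 31 of the 63 symbols were below 1 FPKM. Together the family took 3.19%, 3.14%, 3.78% and 3.85% of the reads. Among the 16 egg coat genes with a standard ZP name, 16 exceeded 10 FPKM, 14 exceeded 100 and 6 exceeded 1000.

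The most abundant ZP-domain gene was zgc:171779 on chromosome 3, at 1926, 2019, 2444 and 2896 FPKM (2321 ± 444). A ZP2-like gene on chromosome 20, si:dkeyp-50f7.2, followed at 1986, 1274, 2836 and 1749 FPKM (1961 ± 654). The gene zp3b was at 1192, 1193, 1856 and 1170 FPKM (1353 ± 336), with control 3 alone above the others. Across these genes no single library was the highest.

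Lower members of the egg coat differed in how evenly they were present. The gene zp3d.2 was nearly constant at 170, 168, 158 and 160 FPKM (164 ± 5.72). The gene zp2.5, in contrast, was at 26.9, 169, 54.8 and 154 FPKM, and zp2l1, summed over its 2 copies, at 283, 350, 382 and 55.6 FPKM. The least abundant named member was zp2l2 (70.0 ± 19.5 FPKM).

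Lectins, proteins that bind sugars, were another abundant family, and rhamnose-binding lectins are known from fish eggs. A galactose-binding lectin domain was annotated in 47 symbols, of which 38 exceeded 1 FPKM, 24 exceeded 100 and 10 exceeded 1000, and these genes took 1.35%, 2.66%, 1.37% and 2.33% of the reads. The gene si:ch211-154a22.8, summed over 3 entries, was the highest, at 1429, 5632, 1392 and 3339 FPKM (2948 ± 2007). In si:dkey-90l23.1 on chromosome 9 the levels were 1133, 1759, 1675 and 2250 FPKM (1705 ± 458). The share of the family was higher in controls 2 and 4 than in controls 1 and 3, and its genes are short (median length 671 bases).

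C-type lectins had a narrower base. Of 113 symbols with this domain 23 exceeded 1 FPKM and 8 exceeded 100, and the family took 0.321%, 0.303%, 0.367% and 0.608% of the reads. The gene zgc:171670 ranged most widely, at 240, 176, 1379 and 2897 FPKM.

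The alpha-2-macroglobulin family, large proteins that trap proteases, was highest in controls 1 and 3, the libraries in which the galactose-binding lectins were lowest. Its share of the reads was 1.66%, 0.402%, 2.69% and 0.751%. Of 29 symbols 11 exceeded 1 FPKM and 8 exceeded 100, and 7 of those 8 lie on chromosome 3. The gene zgc:171426 was at 485, 163, 1270 and 362 FPKM, and zgc:165453 at 406, 17.7, 548 and 9.39 FPKM. Both were higher in controls 1 and 3 than in controls 2 and 4, and the genes of this family are long (median length 4497 bases).

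**Figure D1:**
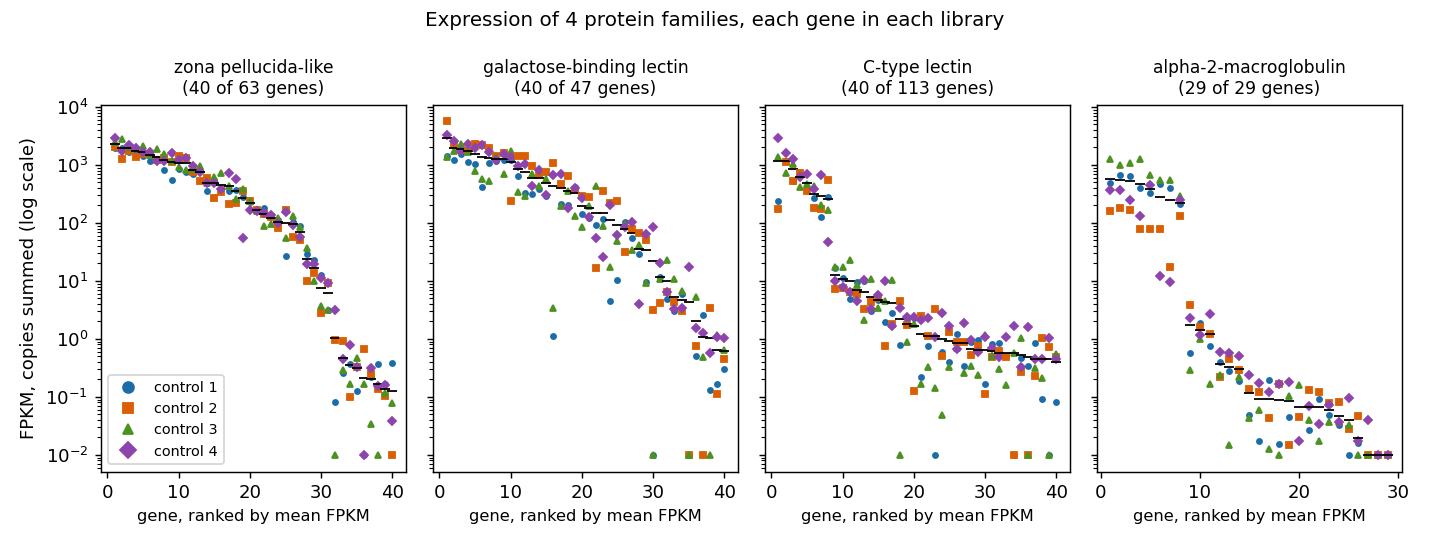
Levels of the genes of the ZP, galactose-binding lectin, C-type lectin and alpha-2-macroglobulin domain families in the 4 control libraries (FPKM, log axis, values below 0.01 drawn at 0.01). Each symbol is 1 gene in 1 library, genes stand in order of their mean with at most 40 per family, and black dashes are means over the 4 libraries. A mean of 100 FPKM or more is reached by 25 of 63 ZP, 24 of 47 galactose-binding lectin, 8 of 113 C-type lectin and 8 of 29 macroglobulin symbols.

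Many abundant genes lay beside each other. Of the 184 genes that were both among the 200 most abundant and placed on a chromosome, 63 (34.2%) had another of the 200 within 200 kb, against 922 of 11938 other detected genes (7.72%) that had one of the 200 within that distance. Genes of one family fill several of these stretches, and neighbours of near-identical sequence can share reads, so the split among them is uncertain. Grouped by this distance, 8 clusters held 3 genes or more, with 37 genes in all.

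The largest cluster, on chromosome 24 (9976628 to 10039291), held 8 genes with no annotated protein domain and means of 829 to 1278 FPKM. It took 2.17%, 1.1%, 3.26% and 1.88% of the reads. Its most abundant gene, zgc:171750, was at 1000, 614, 2340 and 1159 FPKM. In this cluster control 3 was the highest and control 2 the lowest.

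ZP-domain genes formed clusters on chromosome 17 (2569521 to 2595533), with 5 genes at means of 817 to 1681 FPKM, and on chromosome 20 (54290361 to 54311000), with 4 genes at 458 to 1111 FPKM. The first took 0.673%, 0.914%, 0.829% and 0.917% of the reads, so that its share differed little between the libraries. A run of 6 galactose-binding lectin genes on chromosome 9 (8290628 to 8412072) took 0.672%, 1.24%, 0.548% and 1.17% of the reads. On chromosome 3 (3386221 to 3481765), 3 macroglobulin genes took 0.715%, 0.188%, 1.51% and 0.343%.

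Genes of the oocyte itself were broadly present. Of 35 maternal regulators, germ plasm genes and meiosis genes, 33 exceeded 1 FPKM, 29 exceeded 10 and 12 exceeded 100, and together they took 1.52%, 1.46%, 1.5% and 1.59% of the reads. These shares varied little between the libraries, with a coefficient of variation below that of every other list given here. Single genes of the list were less even, with a median coefficient of variation of 0.274 over the 33 above 1 FPKM. With copies summed in the same way, it was 0.277 for the 6110 named genes at 10 FPKM or more, a higher floor. The list includes h1m and 2 egg coat genes.

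Regulators of stored maternal RNA led this group. The gene org, named as an oogenesis-related gene, was at 880, 1513, 892 and 1310 FPKM (1148 ± 314), and zar1, needed for oocyte development in zebrafish, at 879, 1278, 963 and 996 FPKM (1029 ± 173). The gene zar1l, a relative of zar1, was more even at 440, 472, 463 and 499 FPKM (468 ± 24.7). The gene cpeb1b, which encodes a protein that controls the poly(A) tail of stored mRNA, was at 592, 336, 548 and 320 FPKM (449 ± 141). The gene btg4, whose product recruits the enzymes that remove poly(A) tails, was at 284, 57.1, 109 and 231 FPKM, nearly all of it counted on a scaffold copy.

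Germ plasm and germ cell genes were also detected. The gene buc, which organises the Balbiani body of the young oocyte, was at 665, 614, 736 and 549 FPKM (641 ± 79.3). The RNA helicase gene ddx4, a marker of germ cells, was at 91.0, 64.7, 101 and 67.1 FPKM (81.0 ± 17.9), and dazl, an RNA-binding factor of germ cells, was at 58.4, 66.2, 48.7 and 43.3 FPKM (54.1 ± 10.2). The piRNA pathway genes piwil1 and piwil2, which hold transposons in check, averaged 36.2 ± 10.6 and 25.8 ± 3.34 FPKM. The values of buc lay above those of ddx4 in every library, while ddx4 and dazl overlapped.

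The growth factor genes of the oocyte were steady. The gene bmp15 was at 134, 145, 139 and 118 FPKM (134 ± 11.8) and gdf9 at 43.2, 34.4, 35.1 and 39.4 FPKM (38.0 ± 4.09), so bmp15 was above gdf9 in every library. Both encode TGF-beta ligands that oocytes send to the follicle cells. The transcription factor gene figla, which in mammals drives ZP gene expression, was at 0.568, 37.7, 10.6 and 36.1 FPKM from 8, 543, 132 and 461 reads, and was almost not detected in control 1.

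Cell cycle genes for meiotic maturation were among the abundant ones. Cyclin B, with its kinase, forms the factor that drives an oocyte into maturation, and ccnb1 was at 977, 1152, 1100 and 1103 FPKM (1083 ± 74.4). The related cyclin genes ccna1 and ccnb2 averaged 851 ± 277 and 801 ± 144 FPKM. The kinase gene mos, which acts upstream of that factor, was at 3.14, 9.48, 2.2 and 5.52 FPKM. Genes of the synaptonemal complex, which pairs chromosomes in early meiosis, were low: sycp1 and sycp2 averaged 3.66 ± 2.44 and 4.00 ± 2.33 FPKM, sycp3 had 2, 0, 6 and 2 reads, and the cohesin gene rec8b had 2, 3, 0 and 1.

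Transcription factor families as annotated counted 2242 symbols, of which 987 exceeded 1 FPKM and 24 exceeded 100. The gene gtf3ab, whose product acts in the transcription of 5S ribosomal RNA, was the highest, at 742 ± 171 FPKM summed over its 2 copies. Entry by entry, the chromatin protein gene hmgb2a (680 ± 224 FPKM) and the scaffold copy of gtf3ab (678 ± 197 FPKM) came first, followed by xbp1 (444 ± 133 FPKM), a factor of the unfolded protein response. The pluripotency gene nanog, which the early zebrafish embryo receives as maternal RNA, was at 500, 402, 308 and 227 FPKM (359 ± 118).

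Genes listed for steroid-producing cells were detected in part, and a bulk library does not show which cells held their RNA. Of 15 genes in the list 11 exceeded 1 FPKM and 4 exceeded 10, and they took 0.0707%, 0.0774%, 0.0369% and 0.0739% of the reads, lowest in control 3. Beside cyp11a1 and cyp17a1, the 3-beta-hydroxysteroid dehydrogenase gene hsd3b2 was at 49.5, 38.9, 37.0 and 59.3 FPKM (46.2 ± 10.3), which overlapped with cyp17a1. The ferredoxin gene fdx1, which passes electrons to the cytochrome P450 enzymes of mitochondria, was uneven at 83.1, 136, 1.05 and 5.28 FPKM. The gene star, whose product moves cholesterol into mitochondria, had 12, 16, 0 and 7 reads (0.556 ± 0.423 FPKM), far below the enzymes it serves. The gene cyp11a2, a relative of cyp11a1, was also low, with 6, 37, 2 and 7 reads over its copies (0.497 ± 0.595 FPKM). Summed over their copies, hsd3b1 averaged 4.01 ± 2.15 FPKM and fdx1b 5.68 ± 4.27 FPKM.

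The receptor for luteinising hormone, lhcgr, was at 2.33, 0.690, 0.888 and 2.85 FPKM (1.69 ± 1.06), and insl3, an insulin-like peptide gene, at 2.31 ± 0.813 FPKM. The gene cyp17a2, which encodes a second enzyme of the cyp17 type, was at 9.12 ± 4.18 FPKM. Between cyp17a1 and cyp17a2 the values did not overlap.

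Granulosa genes were low. Of 24 genes in the list 12 exceeded 1 FPKM and 2 exceeded 10, and they took 0.0221%, 0.0446%, 0.00771% and 0.0320% of the reads. The keratin gene krt8, of the epithelial cytoskeleton, was the highest, at 41.3, 105, 14.1 and 80.5 FPKM. The gene foxl2b, of the forkhead factors that keep ovarian identity, was at 6.55, 10.5, 3.21 and 11.1 FPKM (7.85 ± 3.70). The aromatase gene cyp19a1a, which makes estrogen from androgen, was at 5.77, 8.28, 4.31 and 10.4 FPKM (7.2 ± 2.70). All 3 were lowest in control 3, as were 14 of the 19 granulosa genes with a mean of 0.1 FPKM or more. Over the 9517 genes of all kinds with a mean of 5 FPKM or more, 28.4% were lowest in control 3. Most genes of the list lay below that level, and no such share is given here for genes at 0.1 FPKM or more. Control 3 also had the fewest genes with a read, 22252 against 23117 to 24312 in the others.

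The inhibin subunit gene inha averaged 5.29 ± 2.60 FPKM. The receptor gene for follicle-stimulating hormone, fshr, had 48, 24, 7 and 24 reads over its copies (0.832 ± 0.519 FPKM), and amh, which encodes anti-Müllerian hormone, had 20, 30, 9 and 18. The follistatin genes fsta and fstb, whose products bind activin, were listed at 0.

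Genes of stroma, muscle and vessels took shares of the reads that overlapped those of the granulosa genes, and leukocyte genes were lower. The stroma list took 0.0294%, 0.0301%, 0.00977% and 0.0203% of the reads. None of its 20 genes exceeded 10 FPKM and 11 exceeded 1. The fibronectin gene fn1b was at 8.80, 14.2, 3.41 and 7.84 FPKM, and the matrix gene sparc at 5.49, 12.6, 0.649 and 6.94 FPKM. The collagen gene col1a1b was at 1.72, 4.26, 0.490 and 1.65 FPKM and the proteoglycan gene dcn at 1.18, 2.07, 0.571 and 2.3 FPKM. Control 3 was the lowest library in each of these, and in 15 of the 19 stroma genes with a mean of 0.1 FPKM or more. The 28.4% given above is for genes of all kinds at 5 FPKM or more, a level that most stroma genes did not reach.

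Of 19 smooth muscle and pericyte genes, 8 exceeded 1 FPKM and 3 exceeded 10. The tropomyosin gene tpm1, also used outside muscle, was at 55.4, 53.0, 37.0 and 50.7 FPKM (49.0 ± 8.28), and tagln, an actin-binding protein gene of smooth muscle, at 6.57, 41.3, 4.51 and 32.6 FPKM. The share of this list was 0.0332%, 0.0362%, 0.0217% and 0.0346% of the reads. Endothelial genes exceeded 1 FPKM in 7 of 19 cases. They took 0.0109%, 0.00716%, 0.00989% and 0.00735% of the reads, in control 3 more than the granulosa and stroma lists. Their summed level of 18.0 to 19.8 FPKM lay below that of the granulosa list (41.3 to 199 FPKM) and overlapped that of the stroma list (15.1 to 52.9 FPKM). The growth factor receptor gene flt4 was the highest (4.11 ± 1.3 FPKM), and the scavenger receptor gene stab2 followed at 7.28, 0.858, 6.64 and 0.738 FPKM, high in controls 1 and 3. The receptor gene kdrl averaged 1.97 ± 0.790 FPKM. Leukocyte genes exceeded 1 FPKM in 5 of 22 cases and took 0.000829% to 0.00499% of the reads. The highest were grn1 (2.38 ± 1.72 FPKM) and the macrophage gene mpeg1.2, at 0.393, 3.07, 0.547 and 3.96 FPKM. The related gene mpeg1.1, the complement gene c1qc and the B cell gene cd79a were listed at 0. Granulosa, stroma and muscle lists were each lowest in control 3, and what part the share of such cells in a section had in this was not tested.

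Several genes of the liver, the pancreas and the blood were low in controls 1 to 3 and higher in control 4, while muscle and nerve genes were not. Vitellogenins, the yolk precursors that the liver makes, took 0.00444%, 0.000970%, 8.64e-06% and 0.0318% of the reads, and all 7 were highest in control 4. Summed over its copies, vtg1 was at 6.56, 1.46, 0 and 41.5 FPKM. Of 17 pancreas genes with a mean of 0.1 FPKM or more, 16 were highest in control 4, as with the trypsin gene prss59.1 at 1.87, 0.55, 0.319 and 35.8 FPKM and the somatostatin gene sst2 at 0, 0, 0 and 15.4 FPKM. The liver gene fabp10a was at 0.181, 0, 0 and 3.58 FPKM from 1, 0, 0 and 18 reads. Of 15 hepatocyte genes 10 were highest in control 4, but many of the 15 had few reads in every library. Over all 9517 genes with a mean of 5 FPKM or more, 23.0% were highest in control 4. Most of the vitellogenin, pancreas and hepatocyte genes lay below that level, so this share covers a higher range.

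The most abundant globin genes of red blood cells were also highest in control 4, with hbaa1 at 0.960, 10.5, 0.466 and 72.8 FPKM and ba1 at 1.91, 2.92, 1.08 and 36.5 FPKM. The other genes of the erythrocyte list were below 1 FPKM on average, and 4 of 8 in all were highest in control 4. Globin ba1l, for example, was at 1.81, 1.01, 0.293 and 0.711 FPKM. The skeletal muscle list took 0.00226%, 0.00159%, 0.00206% and 0.0015% of the reads and the neuron list 0.00303%, 0.00344%, 0.00589% and 0.00276%, both lowest in control 4. The visual cycle gene rpe65c, summed over its copies, was at 0.0480, 0, 0 and 52.6 FPKM. Where this RNA came from was not tested. Of the 7 markers of the ovary, h1m, zp3a.1 and cyp11a1 were also highest in control 4, and the others were not.

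Protein synthesis and mitochondria took shares of the reads that differed widely between libraries. The cytosolic ribosomal protein genes (83 symbols, 74 of them over 100 FPKM) took 2.04%, 4.26%, 1.84% and 3.44% of the reads. Of these genes 61 were highest in control 2 and 45 lowest in control 3, against 28.7% and 28.4% of all genes with a mean of 5 FPKM or more. The gene rps2 was at 780, 2612, 750 and 1349 FPKM, and rps20 at 863, 2172, 713 and 1802 FPKM. Both encode proteins of the small ribosomal subunit, and in both controls 2 and 4 were above controls 1 and 3.

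The mitochondrially encoded genes took 0.496%, 1.3%, 0.190% and 0.757% of the reads, and 14 of 15 were highest in control 2 and 14 lowest in control 3. The gene COX1, a subunit of cytochrome oxidase, was at 1277, 3074, 427 and 1738 FPKM (1629 ± 1106), and CYTB, a subunit of the preceding complex of the respiratory chain, at 349, 1216, 152 and 625 FPKM. Nuclear genes of the respiratory chain took 0.885%, 1.35%, 0.826% and 1.23%, and mitochondrial ribosomal proteins 0.319%, 0.543%, 0.311% and 0.511%. The ranges of the nuclear lists were narrower than that of the mitochondrially encoded genes.

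Some classes varied less. Translation factors took 1.76%, 2.12%, 1.77% and 1.75% of the reads, chaperones 1.42%, 1.36%, 1.60% and 1.33%, and glycolytic enzymes 0.672%, 0.924%, 0.673% and 0.775%. Genes with an RNA recognition motif took 2.32%, 2.04%, 2.31% and 1.94%, and protein kinases 1.63%, 1.29%, 1.55% and 1.28%. In these last classes controls 1 and 3 were above controls 2 and 4, while the ribosomal genes were higher in controls 2 and 4. Cathepsins, the proteases of lysosomes, ranged as widely as the ribosomal genes, at 0.283%, 0.530%, 0.207% and 0.470%. Part of that range came from the gene ctsba alone, with 6, 19599, 0 and 10737 reads. Claudins also ranged as widely as the ribosomal genes, at 0.359%, 0.620%, 0.267% and 0.509%.

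**Figure D2:**
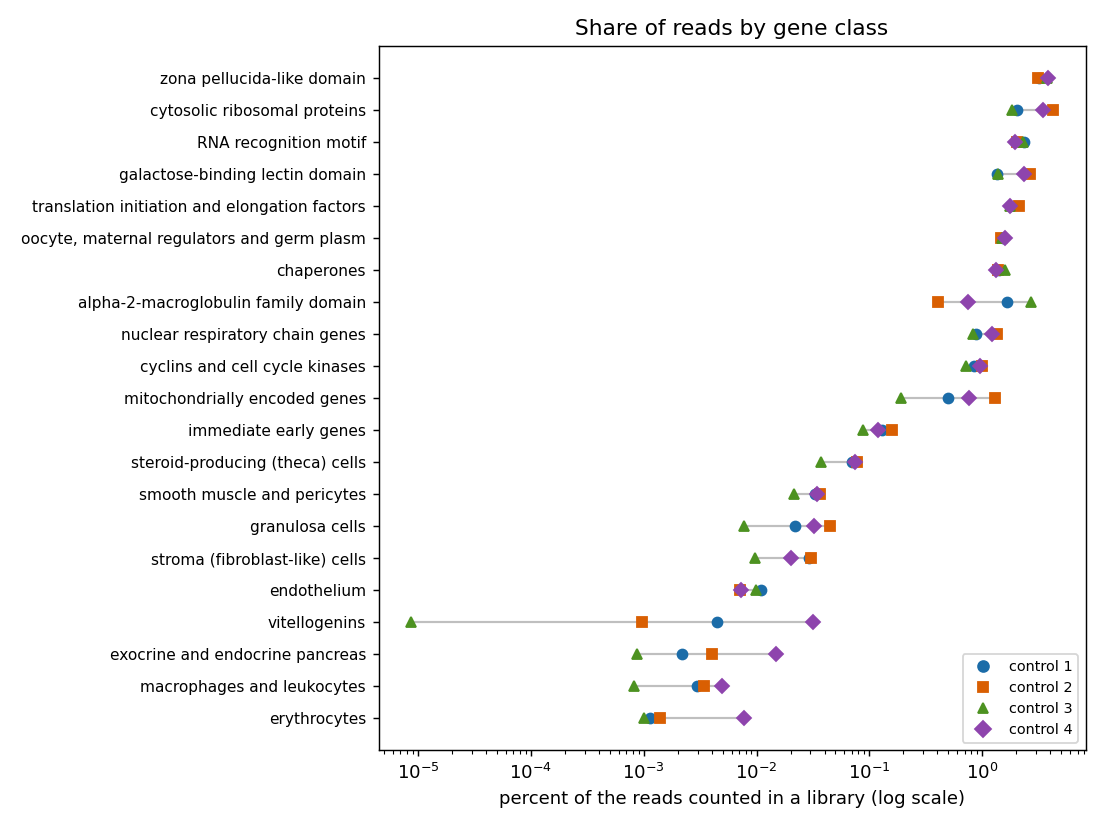
Percent of assigned reads taken by gene classes in each of the 4 control libraries (log axis). Each symbol is 1 library. The ribosomal protein genes range from 1.84% to 4.26% and the mitochondrially encoded genes from 0.190% to 1.3%, while the oocyte list stays between 1.46% and 1.59%.

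Several stress and early response genes were measurable after the 6 hours of culture, with no uncultured tissue to set them against. The antiproliferative gene btg2, counted among the immediate early genes, was at 275, 330, 258 and 220 FPKM (271 ± 45.3). The AP-1 genes junba and fosab averaged 22.2 ± 13.1 and 18.4 ± 4.77 FPKM. The heat-inducible chaperone gene hsp70l was at 55.5, 131, 27.8 and 150 FPKM, and the small heat shock gene hspb1 at 21.5, 148, 13.3 and 35.3 FPKM. The chaperone gene hspa5 of the endoplasmic reticulum was higher, at 916, 955, 1513 and 692 FPKM (1019 ± 349).

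The genes of the peptide and receptors that the wider study addresses were unequal in level. The gene smim20, which encodes the precursor of phoenixin, was at 18.6, 60, 21.7 and 55.8 FPKM (39.0 ± 21.9) from 131, 433, 135 and 357 reads. Of the SREB receptors, a family of conserved orphan G protein-coupled receptors, gpr173 had 7, 5, 15 and 7 reads (0.109 ± 0.0641 FPKM) and gpr27 had 1, 2, 0 and 0 (0.0143 ± 0.0182 FPKM). The receptor gene gpr85 was not analysed here. With so few reads no difference between libraries was detectable for the receptors at this depth.

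Long noncoding RNA genes took 0.389%, 0.745%, 0.303% and 0.695% of the reads, and of 1579 symbols 245 exceeded 1 FPKM and 10 exceeded 100. The most abundant, si:dkey-167i21.2, was at 1330, 3045, 1052 and 2731 FPKM (2039 ± 995). Its annotated protein match is a thymosin beta, so its class is uncertain. The host gene of small nucleolar RNAs gas5 was at 7.76, 158, 1.78 and 27.6 FPKM, with control 2 apart from the rest.

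The libraries differed from each other beyond counting error. Over 17519 genes the Spearman correlation between pairs of libraries ran from 0.859 (controls 2 and 3) to 0.906 (controls 1 and 3), and controls 2 and 4 had 0.902, a description over genes that share libraries and are not replicates. The biological coefficient of variation, the spread of edgeR's negative binomial fit beyond counting error, had a median of 0.445 over 13939 genes. The coefficient of variation of FPKM (SD over mean) had a median of 0.497 for genes at 1 to 10 FPKM, 0.298 at 10 to 100, 0.310 at 100 to 1000 and 0.333 from 1000, so the spread did not fall further among the most abundant genes.

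Part of the ordering of libraries went with gene length, and its share of the spread is not given here. Genes with a mean of 5 FPKM or more (9517) were set against their own mean over the 4 libraries on the log2(FPKM + 1) scale, with the median of each library taken off. The 460 genes of up to 700 bases had median deviations of -0.41, 0.45, -0.50 and 0.41, and the 1873 genes over 3500 bases had 0.30, -0.39, 0.41 and -0.33. The 3010 genes of the class next to the longest lay near 0, at 0.06, -0.07, 0.08 and -0.07. Short genes were thus high in controls 2 and 4 and long genes in controls 1 and 3.

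**Figure D3:**
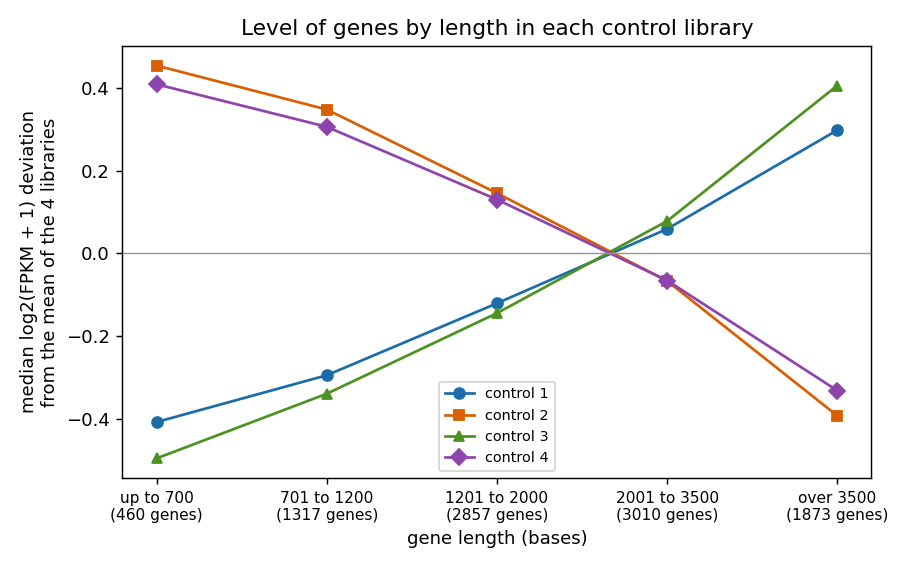
Median log2 deviation of a gene's FPKM from its mean over the 4 control libraries, by gene length class, for genes with a mean of 5 FPKM or more. Each line is 1 library. Controls 2 and 4 fall from 0.45 and 0.41 in the shortest class to -0.39 and -0.33 in the longest, and controls 1 and 3 run the other way.

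The gene families followed this trend to different degrees. Ribosomal protein genes had median log2 deviations of -0.45, 0.57, -0.54 and 0.37, which became -0.07, 0.18, -0.14 and -0.02 once the median of their own length class was taken off. The galactose-binding lectins went from -0.38, 0.56, -0.22 and 0.39 to -0.03, 0.21, 0.19 and 0.02. The median of a length class includes the family's own genes, so part of this move towards 0 was built in. The shortest class had 460 genes. At 5 FPKM or more there were 86 ribosomal protein entries (median length 613.5 bases) and 40 lectin entries (665.5 bases). The macroglobulins kept more of their order, going from 0.60, -1.41, 1.41 and -0.56 to 0.31, -1.02, 1.06 and -0.22. The mitochondrially encoded genes went from -0.28, 1.00, -1.27 and 0.49 to 0.09, 0.65, -1.0 and 0.21. Of the 30 granulosa entries only 6 reached a mean of 5 FPKM, with a median length of 2015 bases. Those 6 hardly moved, from -0.07, 0.89, -1.15 and 0.51 to -0.16, 0.85, -1.12 and 0.39. With the length class taken off, control 3 thus stayed the lowest library for the mitochondrial genes and for these 6 granulosa entries.

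Single genes ranged from nearly constant to present in 1 library. Among 6249 named genes with a mean of 10 FPKM or more, the smallest coefficient of variation was that of rmnd5b, a subunit gene of a ubiquitin ligase complex, at 95.3, 93.7, 95.4 and 94.4 FPKM. The tetraspanin gene tspan7 was at 53.1, 54.0, 54.4 and 53.8 FPKM, and sucla2, of the citric acid cycle, at 52.9, 50.8, 53.3 and 52.8 FPKM. Ranked by single entry, none of the 15 most even genes had a further copy in the genome build, and 7 of the 15 most uneven had one. Reads that shift between copies make a single entry uneven, so this ranking places such genes at that end. The share of all 6249 genes with a further copy is not given here. With copies summed, neil3 and pa2g4b, with 2 entries each, were among the 15 most even.

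At the uneven end, single libraries stood apart. The ubiquitin ligase gene rchy1 was at 1.52, 74.9, 0.860 and 1.15 FPKM, and the clathrin light chain gene clta at 1.65, 48.1, 2.13 and 3.44 FPKM. The mitochondrial gene chchd10 was at 57.7, 2.51, 0.926 and 1.80 FPKM, and hint1, of the histidine triad proteins, at 8.72, 6.46, 80.5 and 2.62 FPKM. The high library was thus control 2 for the first pair, control 1 for chchd10 and control 3 for hint1.

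Other genes were present in some libraries and nearly missing in others. The cathepsin B gene ctsba, a protease of lysosomes and yolk processing, was at 0.328, 1047, 0 and 646 FPKM, from 6, 19599, 0 and 10737 reads. The lectin gene LOC100301575 was at 1.12, 1062, 3.40 and 670 FPKM. Control 2 and control 4 carried both genes. With copies summed, a pattern of 50 FPKM or more in one library and 0.5 FPKM or less in another was found in 6 genes. Among them was gtf2h3, of a general transcription factor, at 19.2, 59.9, 0.377 and 36.3 FPKM.

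Part of this unevenness lay between copies of one gene in the genome build. GRCz11 holds alternate versions of some regions on scaffolds, and 3476 symbols had more than 1 entry. For 923 genes with a chromosome copy, a further copy and 200 summed reads or more in every library, the share of a gene's reads on the chromosome copy differed between its highest and lowest library by a median of 26.2 percentage points. In 194 genes it differed by more than 50 points and in 138 by less than 5. In 76 genes the share went from over 75% in one library to under 25% in another.

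The sum over copies was steadier than a single copy. The median coefficient of variation was 0.458 for the chromosome copy and 0.274 for the sum, against 0.262 for 5821 genes with 1 entry, and the sum had the lower value in 720 of the 923 genes. The minimum of reads was set on the sum, which thus could not come near 0 in a library, while a single copy could. This favours the sum. The gene zdhhc4, a palmitoyltransferase, had 47.5%, 56.2%, 1.61% and 99.4% of its reads on chromosome 12, while its summed level was 54.9 ± 9.89 CPM (reads scaled to the total of the library, with no division by length). The hydrolase gene abhd10b had 0.0625%, 0.725%, 52.4% and 95% on chromosome 24, at 141 ± 22.3 CPM summed. For both genes the copy that held the reads changed between libraries and the level of the gene changed far less. This did not hold for every gene with a wide copy range. In si:ch211-250e5.16 the coefficient of variation was 0.826 for the chromosome copy and 0.743 for the sum. In si:ch211-189e2.3 it was 0.533 for the chromosome copy and 0.908 for the sum.

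Among the genes described above, cyp11a1 is of this kind. Its chromosome copy was at 34.5, 81.5, 56.6 and 160 FPKM and its scaffold copy at 80.9, 54.8, 43.5 and 27.8 FPKM. Control 1 thus had more on the scaffold copy and control 4 more on the chromosome copy. Whether the fish behind the 4 libraries carried different versions of these regions was not tested. Reads that fit both copies may be lost or placed on either by the authors' counting.

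**Figure D4:**
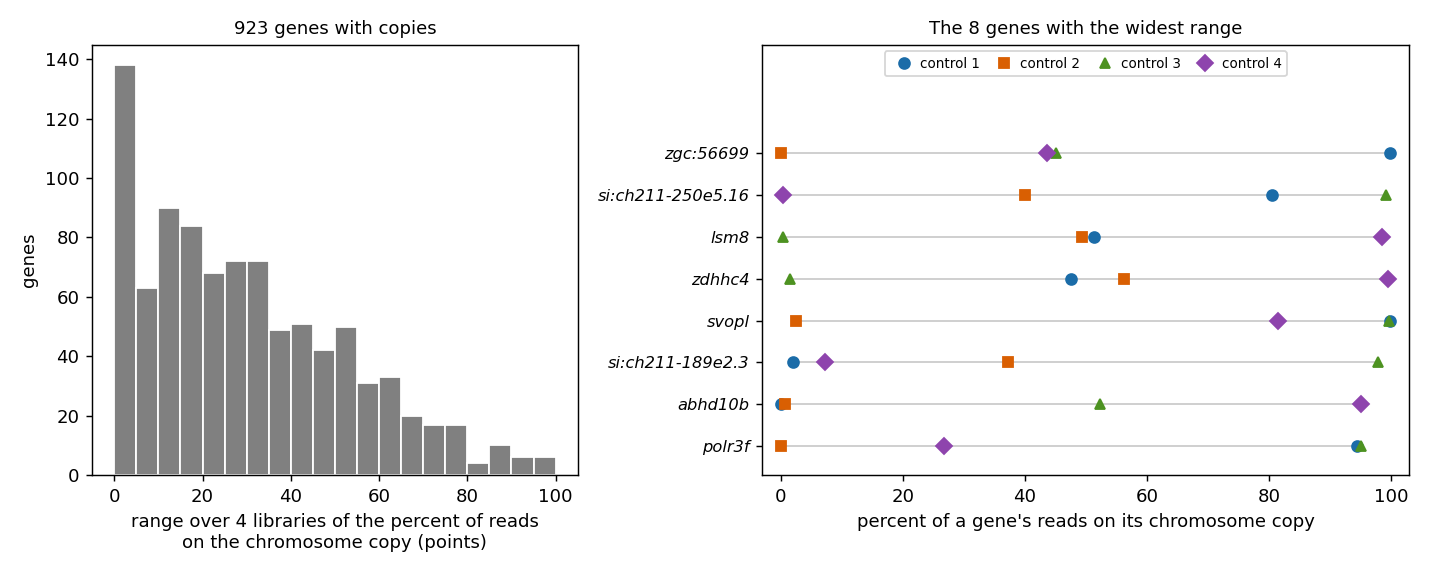
Left, number of the 923 genes with copies by the range over the 4 control libraries of the percent of reads on the chromosome copy. Right, that percent in each library (1 symbol each) for the 8 genes with the widest range. For zdhhc4 the share runs from 1.61% in control 3 to 99.4% in control 4.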

How the data were processed

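Per the labels and the study's methods, the authors isolated RNA with TRIzol, made directional poly(A) libraries, and filtered the reads with fastp before mapping with HISAT2 2.0.5 on build GRCz11. Raw counts for each gene were then taken by featureCounts 1.5.0-p3. The strand setting of the counting was not found in the labels or methods. The FPKM values were also made by the authors and deposited beside the counts. They are 0.936 to 1.045 times the FPKM recomputed from the summed counts and the gene length, so their library size was another one. The 3 deposited tables, 1 for each treatment against the control, list 28228, 28089 and 28009 genes, and the control values are the same in all 3, so the 29629 entries were joined. The 48 other columns of single libraries (treated libraries, and counts scaled by size factors) were not used. Columns of the authors' own comparisons (group means, log2 fold changes, p-values and adjusted p-values) were not used.

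With 1 group no test was run. Orders are called apart only where all 4 values do not overlap. Tables were made with Python 3.11.15, pandas 2.3.3, numpy 2.4.6 and matplotlib 3.10.9, and the spread with edgeR 4.0.16 in R 4.3.3 (TMM, filterByExpr), with DESeq2 1.42.0 as an alternative. The dispersion step was tested on simulated data. Correlations used log2(CPM + 1) of genes with 40 reads or more over the 4 libraries. Depths of 10915669 to 12371260 reads leave counting error large only for genes with few reads.

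The marker genes, the gene lists and the alternatives were chosen with earlier results of these data known. Listed symbols were matched to the tables by symbol or through the RefSeq gene table of GRCz12tu, used for names only. Name patterns were corrected so that rps6k, col4a3bp, krtcap, tubgcp, tubd, tube, hspg2, hspbap and hspbp genes do not count in the families they resemble. Other genes with a like name still count, such as rps19bp1 among the ribosomal proteins and tcp11l1 and tcp11l2 among the chaperones. The same holds for eif2ak kinase genes among the translation factors and ndufaf genes in the respiratory chain list. The genes cd8a, cd79b, gata1a, ins, fabp2, cdx1b, gpr85, hsp70.2 and sqleb were not analysed here. Named genes are the markers, the 30 most abundant genes with a symbol, up to 6 most abundant members of each list and members at 0, the 15 genes with the largest and the 15 with the smallest coefficient of variation at a mean of 10 FPKM or more, up to 4 genes that set a library apart by at least 4-fold, the SREB receptors and smim20, the 8 genes whose copy share varies most, and the 4 transcription factors highest in FPKM. Not every such gene is named. Further genes of the lists, the domain families, the clusters, the length trend, ctsba, gtf2h3 and LOC100301575 were chosen after their values were seen. Promoter motifs were planned and not run, since no promoter sequence was used here. The alternatives tried were TPM, TMM and DESeq2 scaling, copies summed, other thresholds and filters, shares of the FPKM sum, and each library left out in turn.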

Additional observations from a re-analysis of the deposited data

Results flagged for a closer look

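Of 202 values checked for a library far from the other 3 by Dixon's gap, 25 had one. Chance alone flags about 1 in 20 such groups, and some of these genes were chosen because a library stood apart in them. Control 4 was the far library in 10, control 2 in 7, control 3 in 6 and control 1 in 2.

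Control 4 was far above the others in genes of other organs. Its level was 35.8 FPKM for the chromosome copy of the yolk precursor gene vtg1 (at most 6.09 elsewhere) and 35.84 for the trypsin gene prss59.1. It was 15.4 for the somatostatin gene sst2, 3.58 for the liver gene fabp10a (18 reads) and 29.5 for 1 copy of the visual cycle gene rpe65c. The globin genes hbaa1 and ba1 were at 72.8 and 36.5 FPKM in it. As list shares, control 4 had 0.0318% of reads in vitellogenins, 0.00780% in erythrocyte genes and 0.00158% in intestine genes.

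Control 2 was far above the others for the elongation factor gene eef1a1l1 (2803 FPKM), the tubulin gene tubb4b (2430 FPKM), the small heat shock gene hspb1 (147.9 FPKM), rchy1 (74.9 FPKM), clta (48.1 FPKM) and the noncoding gas5 (158 FPKM), and for the share of the translation factors (2.12% of reads, against 1.75% to 1.77%).

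Control 3 was far above the others for the egg coat genes zp3b (1856 FPKM) and zp2.3 (711 FPKM) and for hint1 (80.5 FPKM) and rundc3ab (39.0 FPKM). It was far below them in the shares of the steroid-producing cell genes (0.0369% of reads) and of the connexins, the gap junction proteins (0.0511%, against 0.0595% to 0.0612%). Control 1 was far below the others for crp2 (519 FPKM) and far above them for chchd10 (57.7 FPKM).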

How the results depend on the processing

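Of 1566 values recomputed under the alternatives, 1407 were called the same and 159 moved. Most were judged by 1 SD between the libraries. Gene counts and biological coefficients of variation were judged by a change of 1.5 times, and correlations by the SD over pairs. Of the 159, 119 were levels as TPM, which rescales all genes of a library. Leaving out 1 of 4 libraries cannot move a mean by 1 SD. The means among the 820 such values, all called the same, thus say nothing of stability. Set against a move of over 1.5 times, 38 of the 820 moved, 16 of them without control 4, 15 without control 2, 5 without control 3 and 2 without control 1. Among the markers this was gsdf, at 3.73 FPKM without control 2. Without control 4, the share of reads was 0.00181% in vitellogenins and 0.00235% in pancreas genes, and the chromosome copy of vtg1 averaged 2.42 FPKM. No paired analysis was possible because the results come from 1 group and from no test. As TPM, in which every library has the same sum, h1m was 2948, zp3a.1 3528, zp3a.2 3209, cyp11a1 146.5 on its chromosome copy, cyp17a1 97.9 and acta2 17.6. As a share of the FPKM sum in place of reads, the top 100 genes took 23.9%, the top 1000 genes 59.4%, the oocyte list 1.65%, the egg coat list 2.03%, the ribosomal protein genes 7.36%, the ZP-domain genes 4.05%, the galactose-binding lectins 3.98%, smooth muscle 0.0203% and stroma 0.00659%. This weighs short genes more. The median biological coefficient of variation was 0.730 with no filter on low counts, and the lowest Spearman correlation was 0.897 over all genes with a read. With a minimum of 50 summed reads, 306 genes had a copy share that ranged over more than 50 points. The length correction was added after seeing the data.

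With 4 libraries, only values that do not overlap can be told apart, and genes with under about 20 reads per library rest on counting error. The libraries differ in their balance of short and long genes, and its source was not tested. Levels of genes with more than 1 entry depend on how reads were placed between copies.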
